A study of Mus musculus with 12 samples.

Results

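The cells described here are Fabp1-intermediate cells with little Mki67 and Top2a in mouse small intestinal organoids. They were chosen by their expression, per 10000 unique molecular identifiers (UMIs) of a cell: Fabp1 at 5 or more and below 50, Mki67 plus Top2a below 3, and low goblet (Fcgbp, Tff3, Muc2 and Agr2, below 10), Paneth (Defa17, Defa24, Defa30 and Lyz1, below 50) and endocrine (Chga and Chgb, below 10) transcripts. Of 11911 hashtag singlets that passed the limits on depth and mitochondrial reads, 941 cells (7.90%) met this rule. Fabp1 had a median of 17.4 per 10000 UMIs in them, and 386 of the 941 held no UMI of Mki67 or Top2a. The limits cut through continuous distributions, since the nearest cells lay at 4.9963 and 5.0264 at the lower Fabp1 limit, at 49.9963 and 50.0069 at the upper one, and at 2.9872 and 3.0268 at the limit of Mki67 plus Top2a. These values chose the cells and are not results.

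The small intestinal epithelium renews from Lgr5-positive stem cells at the crypt base, whose daughters divide as transit-amplifying cells, leave the cell cycle and mature into absorptive enterocytes or secretory cells. Fabp1, a liver-type fatty acid binding protein, rises along the absorptive route, while Mki67 and Top2a mark cells in or near mitosis. Interferon γ (IFNγ) signals through IRF1 to genes of antigen processing and presentation, cell-autonomous defence and programmed cell death, and interleukin 10 (IL-10) signals mainly through STAT3.

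The cultures came from BALB/c organoids grown for 4 days in 6 groups: untreated control organoids, organoids with allogeneic CD25high FoxP3-GFP+ regulatory T (TReg) cells, the same co-culture with antibodies at 10 µg/ml against IFNγ, against the IL-10 receptor (anti-IL-10R) or against both, and organoids without T cells that received recombinant IFNγ (0.25 ng/ml) and recombinant IL-10 (10 ng/ml). The 100000 TReg cells per well were kept with IL-2 (30 U/ml) and beads carrying CD3 and CD28 antibodies, on a tilted plate that kept them from touching the organoids, and live EpCAM+ cells were sorted before sequencing. Hashtag antibodies marked the 6 groups, and all groups of an experimental replicate were pooled into the same droplet libraries, by which the 3 replicates are told apart (libraries B1 and B2, B3 and B4, and B5). The labels give a number and not the origin of a replicate, so p-values measure the spread between these 3 samples. The Fabp1-intermediate cells numbered 46, 75 and 37 in the control replicates, 60, 72 and 38 with TReg cells, 67, 63 and 35 with anti-IFNγ, 45, 81 and 27 with anti-IL-10R, 61, 48 and 25 with both antibodies, and 69, 68 and 24 with the recombinant cytokines. Their median depth was 37453 UMIs, and by group it lay between 36380 (anti-IL-10R) and 38166 (anti-IFNγ). None of their cell barcodes was shared with another such cell in a different library, and 2 of them were also the barcode of some other kept cell.

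Along the Fabp1 axis, the cells took an intermediate place in genes that the rule did not use, although this comparison contrasts classes cut by the rule's own genes and carries no test. The classes held different shares of cytokine-treated cells (17.1% of the Fabp1-intermediate cells, 18.2% of the cells with Fabp1 at 50 or more and low Mki67 and Top2a, and 5.82% of the cells of the same Fabp1 range with Mki67 plus Top2a at 3 or more), so levels are given here for control cultures alone, on 158, 171 and 131 cells. Sucrase-isomaltase (Sis), a brush border disaccharidase, reached 761 CPM on average of 3 replicates (a gene's UMIs over all UMIs of a summed class, scaled to a common total) in these cells against 1821 in the high Fabp1 cells and 347 in the cycling ones. Rbp2, which binds retinol in enterocytes, stood at 2196, 6463 and 1277 in the same order. The stem cell gene Lgr5 stood at 8.34, 0.479 and 18.3 CPM, but in replicate 1 it was lower in the cycling cells (4.84) than in the Fabp1-intermediate ones (7.57), and the cycling mean rested on replicate 2 (36.7). Of the 4 markers given for these cells beside Fabp1, Areg (amphiregulin, a ligand of the EGF receptor) was at 100.1, 91.3 and 49.3 CPM in the control replicates of these cells, at 156, 159 and 60.6 in the high Fabp1 cells and at 28.3, 40.2 and 10.6 in the cycling ones. It was intermediate in each replicate. Lgals3 (galectin 3) averaged 24.5, 39.8 and 11 CPM, but in replicate 1 the Fabp1-intermediate cells (4.33) lay below the cycling ones (12.1). The cycling cells share the Fabp1 range, so they are no lower point on the Fabp1 axis. In the control cells with Fabp1 below 5 and low Mki67 and Top2a, Sis was at 91.9, Rbp2 at 242 and Lgr5 at 84.3 CPM on average. Areg was at 26.2 and Lgals3 at 6.93 CPM there. Cldn4, a tight junction claudin, was at 2.46 and Gdf15, a stress-induced cytokine, at 14.8 CPM, and neither was higher on average than in the 417 control cells with Fabp1 below 5 and low Mki67 and Top2a. With all groups pooled, the genes most specific to these cells, S100a16 and Dsc2, were 1.27- and 1.18-fold above the next of the 5 classes cut by Fabp1, Mki67 and Top2a.

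The name non-cycling needs a limit. DNA replication genes (Mcm2 to Mcm7, Pcna and others, 15 in all) were still present: their summed level per cell had a median of 2.83 per 10000 UMIs and a 90th percentile of 15.9 in the 158 control cells, so some of the cells expressed S phase genes without Mki67 or Top2a above the limit. They are therefore called Fabp1-intermediate cells here. T cell transcripts were almost absent, with 78 UMIs of Ctla4 in 72 of the 941 cells, at most 2 UMIs of any other of 14 T cell genes, and with Cd3d, Cd3g, Cd4, Foxp3, Trac, Trbc1, Trbc2 and Ifng at 0. Fibroblast genes (6 of 6, Col1a1 and Dcn among them) were at 0 as well, and tuft cell genes came mostly from very few cells, Dclk1 with 130 UMIs in 3 cells.

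**Figure D1:**
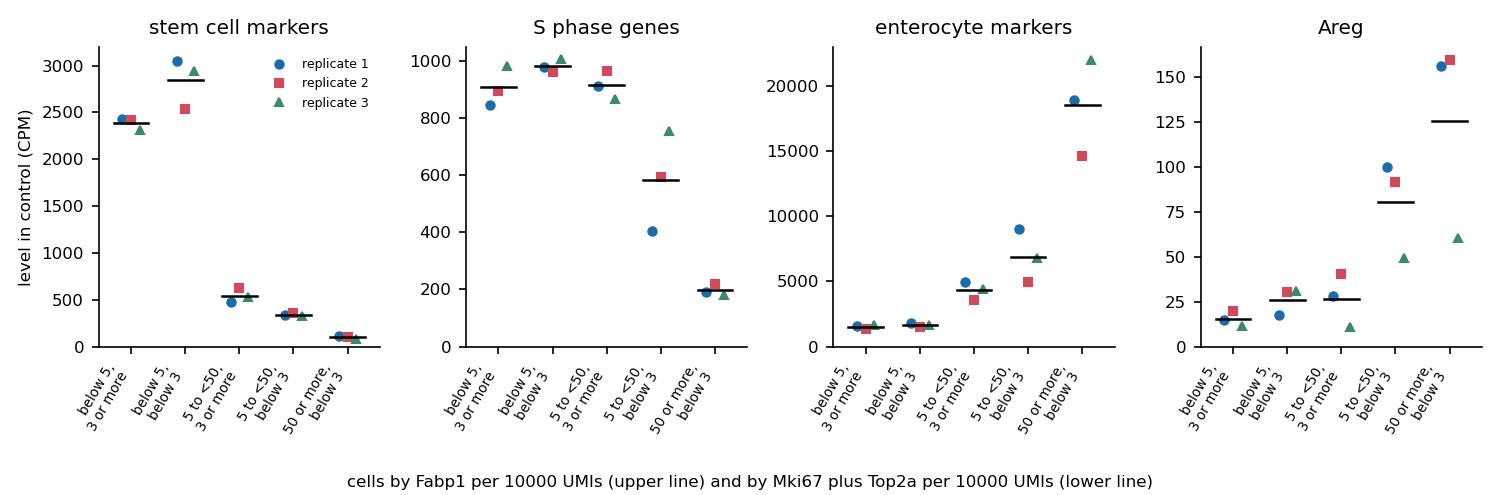
Summed level in CPM (y axis) of stem cell markers, S phase genes, enterocyte markers and Areg in 5 classes of cells, cut by Fabp1 (upper line of each x label) and by Mki67 plus Top2a (lower line), in control cultures alone. Points are the 3 replicates and bars their mean. The class at Fabp1 5 to below 50 and Mki67 plus Top2a below 3, the Fabp1-intermediate cells, lies between the classes with less and with more Fabp1 and equally low Mki67 and Top2a in all 4 panels, with Areg at 80.2 CPM on average.

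With 3 replicates per group, the exact tests of shares could not reach a p below 0.05, so they decide nothing here. No difference from control passed them in the share of all cells that were Fabp1-intermediate. It was 9.15% ± 1.51 (SD, n = 3) in control organoids, with 7.72%, 9.0% and 10.7% in the replicates, and 8.94% ± 2.76 with the recombinant cytokines, with 12.1%, 7.5% and 7.21%. The replicates of these groups overlapped, and the cytokine share was above control in replicate 1 and below it in the other two. With TReg cells the share was 8.32% ± 0.84, with anti-IFNγ 8.17% ± 1.61, with anti-IL-10R 7.27% ± 1.38 and with both antibodies 6.61% ± 1.38. The exact two-sided permutation p against control ran from 0.2 to 0.8 over the 5 groups (0.5 to 0.8 after adjustment over them), where 3 against 3 replicates cannot give less than 0.1. With replicates paired, the share with anti-IL-10R was below control in 3 of 3, by 1.94, 0.51 and 3.18 percentage points, and the exact two-sided sign-flip p was 0.25, the smallest that 3 pairs allow (0.625 after adjustment over the 5 groups). In the other groups 1 of 3 replicates was above control, with exact sign-flip p from 0.5 to 1.0. The directions changed with thinning. With every cell thinned to 10000 UMIs, anti-IL-10R was below control in 2 of 3 replicates (a mean difference of -0.42 in place of -1.88 points), while TReg cells (-0.67) and both antibodies (-2.42, exact permutation p = 0.1, 0.5 after adjustment) were below it in 3 of 3. Without replicate 1 the difference was -1.64 in place of -0.83 points for TReg cells, -2.17 in place of -0.98 for anti-IFNγ and -4.04 in place of -2.54 for both antibodies.

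The cells of this Fabp1 range were also split by Mki67 and Top2a, a measure added after the shares had been seen. It uses the genes that chose the cells and is a description without a test. In control organoids 50.5%, 54.7% and 60.7% of the cells with Fabp1 at 5 to below 50 were under the limit of Mki67 plus Top2a, and with recombinant IFNγ and IL-10 it was 87.3%, 73.9% and 80.0%. Every cytokine replicate lay above every control replicate, by 36.8, 19.2 and 19.3 percentage points within replicates. The other groups stayed between 44.6% and 66.4%, overlapping control. The cells of the range above the limit were correspondingly few with the cytokines, 2.07% ± 0.50 of all cells against 7.32% ± 0.32 in control.

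**Figure D2:**
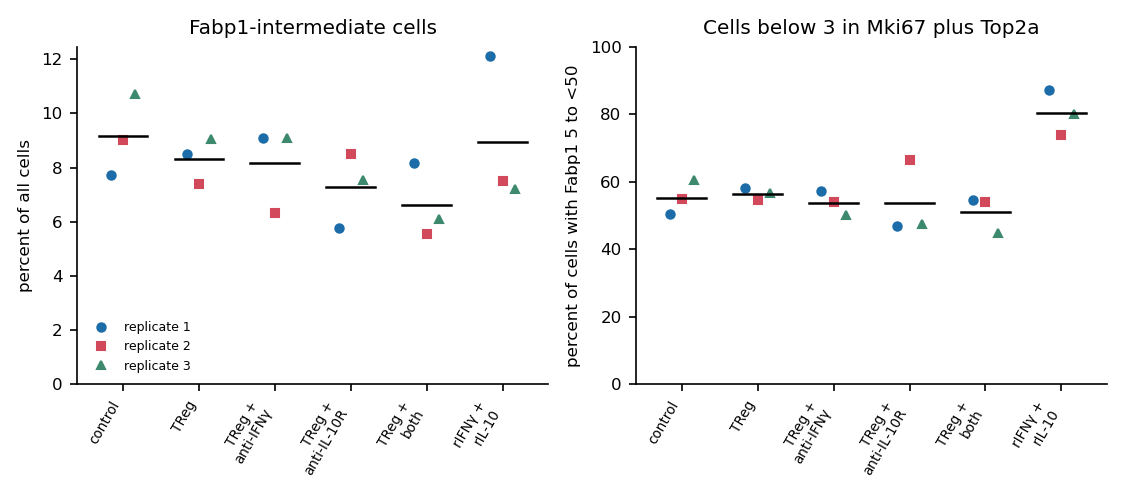
Left, Fabp1-intermediate cells in percent of all cells; right, cells with Mki67 plus Top2a below 3 per 10000 UMIs, in percent of cells with Fabp1 at 5 to below 50. Points are replicates of the 6 groups on the x axis and bars their mean. In the right panel the 3 cytokine replicates lie at 73.9% to 87.3%, above all others.

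Recombinant IFNγ and IL-10 changed these cells far more than any co-culture did. On sums of UMIs per group and replicate, 1436 genes rose and 1400 fell against control out of 9945 tested, that is 14.4% and 14.1%, or 28.5% of all genes in either direction (edgeR quasi-likelihood test with the replicate as a block, Benjamini-Hochberg adjusted p below 0.05), while the median log2 fold change of all genes was -0.02. The replicates of the groups did not overlap in 25.2% of the genes. Levels of single genes are in CPM of a sum, scaled by TMM, and summed levels of lists are unscaled. Without replicate 1, the count of changed genes was 1719 in place of 2836.

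Irf1, the transcription factor that carries much of the IFNγ response, was at 19.7, 5.99 and 9.81 CPM in the control replicates and at 241, 152 and 177 CPM with the cytokines. All cytokine replicates were far above all controls, and the log2 fold change was 4.05 ± 0.26 (SE, adjusted p = 2.61e-09). Irf8, a further interferon regulatory factor, went from 43.4, 41.6 and 37.1 CPM to 579, 271 and 336 (log2 fold change 3.31 ± 0.27, adjusted p = 2.36e-08). The control and cytokine replicates were apart for both genes.

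Of the interferon-inducible list, 21 of its 47 genes were abundant enough for the test, of which 18 rose and 1 fell, with a median log2 fold change of 2.85. The filter did not require a gene in control. Nlrc5, Ifi47, Igtp and Irgm2, with 1 UMI in control, and Iigp1, with 2, passed it through groups where they were high. Such genes could only be counted as higher, so counts and medians of this list and of the class II list are partly set by the filter, in every comparison with control. The genes that rose included the immunity-related GTPases, which guard vacuoles against microbes: Irgm1 was at 7.07, 5.99 and 6.31 CPM in control and at 174, 57.0 and 88.5 with the cytokines. Igtp was nearly absent from control cells, with 1 UMI in all of them against 2021 in the cytokine cells, a ratio of 2004 with a counting interval of 359 to 79189. Iigp1 had 2 UMIs in control and 670 with the cytokines, a ratio of 332 (91.6 to 2748). The exception was Casp4, an inflammatory caspase, which fell by 1.48 ± 0.28 on the log2 scale (adjusted p = 0.000496), from 29.3, 12.7 and 15.4 CPM to 7.80, 3.75 and 12.6. Its groups were apart by a narrow margin, and without replicate 1 it was no longer called.

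The MHC class I pathway rose as a whole, 18 of 18 tested genes, with a median log2 fold change of 1.69. The immunoproteasome subunit Psmb8 was at 16.2, 10.2 and 21.0 CPM in control and at 494, 362 and 755 CPM with the cytokines, a log2 fold change of 5.17 ± 0.37 (adjusted p = 5.46e-09). Psmb9, its partner, rose by 4.34 ± 0.30 and Tap1, a subunit of the peptide transporter into the endoplasmic reticulum, by 4.79 ± 0.48. The light chain B2m, already abundant in control (248, 221 and 264 CPM), reached 835, 602 and 800 CPM, and the heavy chain H2-K1 rose by 1.48 ± 0.12. No replicate of the cytokine group overlapped a control replicate for any of them.

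MHC class II genes, which present peptides to CD4+ T cells, were close to 0 in control cells. Cd74, the invariant chain, was at 1.51, 5.99 and 4.91 CPM in control and at 1104, 1099 and 1698 CPM with the cytokines (log2 fold change 8.90 ± 0.82, adjusted p = 9.55e-08), and the α chain gene H2-Aa went from 1.01, 1.06 and 0 CPM to 270, 222 and 347. Ciita, the coactivator of the class II genes, had no UMI in control cells and 203 with the cytokines, so it was at least 67.1-fold higher, against a limit of 3 UMIs over the group. In the list, 9 of 12 tested genes rose and none fell. Of these 12, Ciita and H2-DMb2, with 0 UMIs in control, H2-DMb1 with 2 and H2-Eb1 with 3 passed the filter through groups where they were high. Its median log2 fold change was 7.28 as fitted, and 5.26 with the 2 genes at 0 in control set to their bound.

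For MHC class I and II, the change was seen in nearly all cells of the sums. With each cell thinned to 10000 UMIs, 100%, 98.5% and 100% of the cytokine cells held a UMI of Cd74, H2-Aa, H2-Ab1 or H2-Eb1, against 8.70%, 6.67% and 8.11% of control cells (unthinned 99.5% and 21.6% on average, at median depths of 37514 and 37156 UMIs). Control and cytokine cells shared their droplet libraries, and whether free RNA gave the UMIs of control cells was not tested. Per cell, the summed class I level had a 10th percentile of 39.3 per 10000 UMIs with the cytokines, above the 90th percentile of 23.9 in control cells. For class II the same values were 13.1 and 1.60. Areg was more uneven, with a 10th percentile of 0, a median of 1.4 and a 90th percentile of 11.1 with the cytokines, against a 90th percentile of 2.82 in control.

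**Figure D3:**
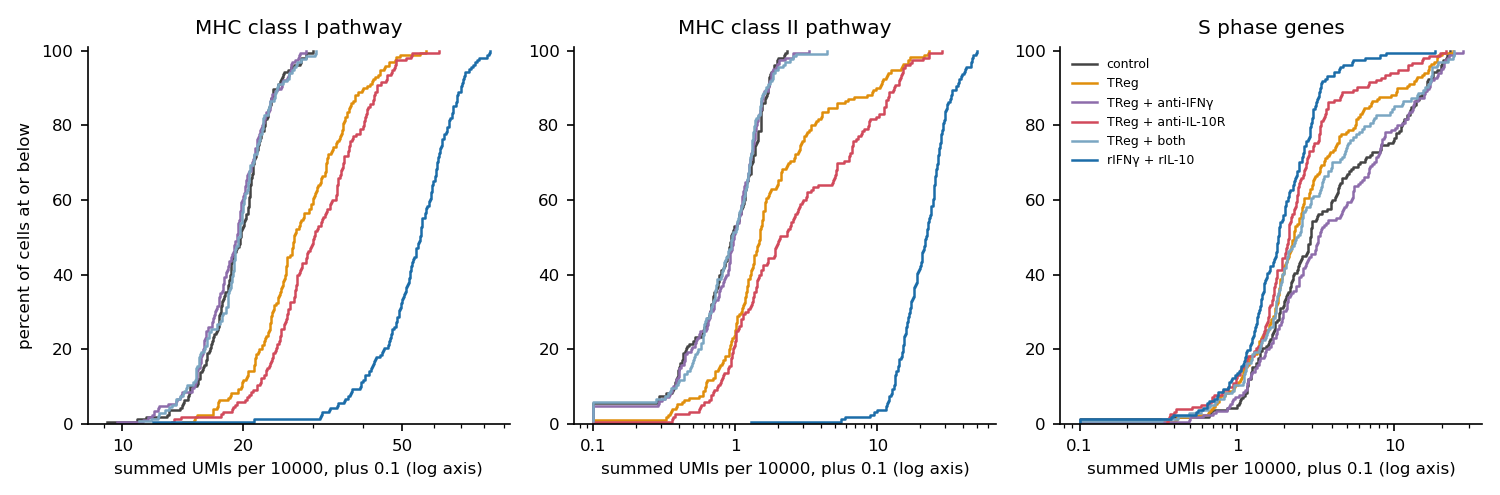
Percent of Fabp1-intermediate cells (y axis) at or below a summed level (x axis, UMIs per 10000 plus 0.1, log scale) of the MHC class I list, the MHC class II list and S phase genes, by group, replicates pooled. The cytokine curve of class I lies wholly to the right, with a median of 55.4 against 19.6 in control, and the TReg and TReg + anti-IL-10R curves of class II carry a long upper tail.

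Because the genes above rose together, promoters are shown for the most significant genes of the 3 lists that had an entry and a motif match, and for Areg. Sequences are 250 bases before the start, in the direction of the gene, from RefSeq (GRCm38.p6). They are those of the reference genome, and differences of the BALB/c organoids from it, in H2 genes as elsewhere, were not examined. Capitals mark letters of TTCNNNGAA, the γ-activated site (GAS) of IFNγ-responsive genes, and of GAAA repeated after 2 free bases, the core of the interferon-stimulated response element (ISRE) bound by IRF proteins. In class II promoters they mark ATTGG on either strand, the Y box.
Irf1: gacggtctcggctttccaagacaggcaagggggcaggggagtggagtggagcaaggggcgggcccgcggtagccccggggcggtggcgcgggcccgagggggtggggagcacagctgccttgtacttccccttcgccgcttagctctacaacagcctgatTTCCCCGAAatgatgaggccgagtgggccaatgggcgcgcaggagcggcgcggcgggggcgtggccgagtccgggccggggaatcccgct
Irf8: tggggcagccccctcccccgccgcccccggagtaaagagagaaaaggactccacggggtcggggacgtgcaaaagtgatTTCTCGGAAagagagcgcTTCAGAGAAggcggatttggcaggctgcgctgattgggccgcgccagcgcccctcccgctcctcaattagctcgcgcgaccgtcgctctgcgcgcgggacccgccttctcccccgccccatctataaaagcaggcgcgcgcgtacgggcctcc
Irgm1: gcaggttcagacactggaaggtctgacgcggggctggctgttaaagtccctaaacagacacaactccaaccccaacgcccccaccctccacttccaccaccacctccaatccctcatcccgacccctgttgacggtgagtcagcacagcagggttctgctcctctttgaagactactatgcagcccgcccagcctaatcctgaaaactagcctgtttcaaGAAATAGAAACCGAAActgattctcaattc
Psmb8: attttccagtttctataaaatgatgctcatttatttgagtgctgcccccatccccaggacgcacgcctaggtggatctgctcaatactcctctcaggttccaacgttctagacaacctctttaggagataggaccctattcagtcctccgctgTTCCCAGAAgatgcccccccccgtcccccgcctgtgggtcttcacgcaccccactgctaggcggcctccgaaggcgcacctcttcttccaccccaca
H2-Eb1: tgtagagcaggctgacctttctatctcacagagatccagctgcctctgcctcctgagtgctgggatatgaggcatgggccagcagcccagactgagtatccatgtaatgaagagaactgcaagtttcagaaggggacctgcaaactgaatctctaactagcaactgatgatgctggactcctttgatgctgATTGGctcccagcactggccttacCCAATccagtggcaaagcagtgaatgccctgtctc
H2-Aa: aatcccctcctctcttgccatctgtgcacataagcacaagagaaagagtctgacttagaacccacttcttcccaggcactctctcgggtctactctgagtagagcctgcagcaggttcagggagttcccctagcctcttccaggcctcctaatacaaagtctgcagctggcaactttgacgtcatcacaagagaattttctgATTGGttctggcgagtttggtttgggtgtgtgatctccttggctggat
Areg: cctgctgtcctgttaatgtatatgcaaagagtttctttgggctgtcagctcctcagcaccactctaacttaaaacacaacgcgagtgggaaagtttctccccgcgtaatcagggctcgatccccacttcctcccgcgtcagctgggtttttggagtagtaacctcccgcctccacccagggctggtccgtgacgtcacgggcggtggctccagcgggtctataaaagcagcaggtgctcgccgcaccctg
They lie at chr11:53769764-53770013 (Irf1, plus strand), chr8:120736108-120736357 (Irf8, plus), chr11:48871421-48871670 (Irgm1, minus), chr17:34197945-34198194 (Psmb8, plus), chr17:34305617-34305866 (H2-Eb1, plus), chr17:34287824-34288073 (H2-Aa, minus) and chr5:91139349-91139598 (Areg, plus). Irf1 and Psmb8 held 1 GAS match each, Irf8 held 2, and Irgm1 held 2 overlapping ISRE core matches. H2-Eb1 held 2 Y boxes and H2-Aa held 1, while the Areg window held none of the 3 motifs. The windows of Irf1, Irf8 and Irgm1 also held 1 Y box each, left unmarked. The same rule reached Psmb9, Psme1, H2-DMa and Lgals3, which are not printed. None of these windows held a GAS or ISRE core. Psmb9 and Lgals3 held 1 Y box each, a motif marked in class II promoters only, and H2-DMa held none.

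Both strands were searched, and overlapping matches were counted. Over all 32851 promoters of the table, 7.02% held a GAS match, 2.98% an ISRE core, 9.66% at least 1 of these, and 33.8% a Y box, which as 5 letters is frequent by itself. Of the interferon-inducible genes tested, 8 of the 16 with an entry held a GAS or ISRE core, against 3 of 16 in the class I list and 2 of 8 in the class II list. Y boxes were found in 11 of 16 class I, 7 of 8 class II and 4 of 16 interferon-inducible windows. A match describes these letters in this window, not binding. Genes with several starts were read at the most upstream start.

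Of 18 tested cell death genes, 10 rose, 2 fell and 6 were not called, against 14.4% of all genes that rose and 14.1% that fell. The median log2 fold change of the list was 0.55. The death receptor Fas rose by 3.27 ± 0.31 on the log2 scale, from 10.6, 4.23 and 2.8 CPM in control to 67.5, 45.8 and 63.2 with the cytokines, with no overlap (adjusted p = 1.32e-07). Mlkl, which executes necroptosis, rose by 1.87 ± 0.43, though Mlkl was not called without replicate 1. Mcl1, a survival protein, rose too, by 0.35 ± 0.11, and Bcl2l11, which promotes apoptosis, fell by 1.04 ± 0.38. Leaving out any single replicate ended the call of Mcl1, and leaving out replicate 1 or 2 that of Bcl2l11.

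Among the markers of these cells, Areg was at 93.4, 93.4 and 51.9 CPM in control and at 315, 507 and 321 CPM with the cytokines. The groups did not overlap, and Areg rose by 2.23 ± 0.35 on the log2 scale (adjusted p = 6.11e-05). Lgals3 was at 4.04, 30.7 and 41.4 CPM in control and at 93.0, 67.5 and 94.3 CPM with the cytokines, a log2 fold change of 2.03 ± 0.38 (adjusted p = 0.000402), with a wide spread in control. Cldn4 (log2 fold change 2.02 ± 0.86, adjusted p = 0.0823) and Gdf15 (-0.27 ± 0.31, adjusted p = 0.564) did not pass the test. Thus 2 of the 4 markers that the rule left free rose, against 14.4% of all genes, and nothing is read from so few genes.

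Of 11 tested genes of EGF receptor ligands, receptors and feedback regulators, Areg rose and 3 fell, with a median log2 fold change of -0.19. Of all genes, 14.4% rose and 14.1% fell, and nothing is read from so few genes about the family. Hbegf, another ligand of the receptor, was at 118, 33.5 and 82.7 CPM in control and at 10.9, 38.7 and 32.2 CPM with the cytokines. Its replicates overlapped, since replicate 2 went the other way, and the fall of 1.46 ± 0.36 on the log2 scale (adjusted p = 0.00458) was not called without replicate 1 or without replicate 3. The receptor Egfr fell by 1.35 ± 0.25, from 24.2, 23.6 and 18.2 CPM to 7.46, 13.7 and 2.30, and Errfi1, a feedback inhibitor of the receptor, fell by 1.27 ± 0.22. For both, control and cytokine replicates were apart.

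Genes that enterocytes gain on leaving the crypt changed unevenly. Krt20, a keratin of mature enterocytes, was at 19.7, 9.52 and 11.9 CPM in control and at 219, 80.4 and 151 CPM with the cytokines (log2 fold change 3.43 ± 0.34, adjusted p = 2.6e-07), with no overlap. Of the enterocyte markers other than Fabp1, 11 of 22 tested rose and 3 fell, against 14.4% and 14.1% of all genes. The median log2 fold change was 0.62. The 3 falls are near the share of all genes, and nothing is read from their count. The fructose transporter Slc2a5 rose by 2.42 ± 0.28 and Mttp, which loads lipoproteins, by 1.14 ± 0.14. Sis rose by 1.34 ± 0.25, although its control replicate 1 (1288 CPM, against 457 and 481) exceeded a cytokine replicate (2887, 1141 and 1411). The 3 that fell were Reg1, an antimicrobial lectin-like protein, Mme, a peptidase, and the amino acid transporter Slc6a19, by 2.15 ± 0.78, 1.17 ± 0.30 and 0.90 ± 0.26, and without replicate 1 none of the 3 was called. In the galectin, annexin and keratin list 8 of 14 rose (Lgals9 by 1.31 ± 0.10, Anxa2 by 0.75 ± 0.11) and 4 fell (Lgals2 by 0.69 ± 0.12, Krt18 by 0.67 ± 0.18), against 14.4% and 14.1% of all genes.

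Crypt genes fell. Sox9, a transcription factor of crypt progenitors, was at 80.3, 55.3 and 61.7 CPM in control and at 10.5, 9.99 and 12.6 CPM with the cytokines, apart in all replicates and lower by 2.68 ± 0.23 on the log2 scale (adjusted p = 2.8e-08). Stem cell markers fell in 7 of 8 tested genes, against 14.1% of all genes, with a median log2 fold change of -2.17. Their summed level, 337, 355 and 326 CPM in control, was 51.0, 106 and 97.9 with the cytokines. Slc12a2, a chloride cotransporter of crypt cells and the most abundant of them in control, fell by 2.83 ± 0.27. Lgr5, with 7.07, 14.4 and 3.50 CPM in control and 0, 3.33 and 2.30 CPM with the cytokines, fell by 2.40 ± 0.56. The call of Lgr5 was lost with cells re-chosen by the rule after thinning to 10000 UMIs and with Fabp1 limited to 8 to 40.

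DNA replication genes fell in 14 of 15, against 14.1% of all genes, with a median log2 fold change of -1.74. Mcm6, a subunit of the replicative helicase, was at 31.8, 50.4 and 66.6 CPM in control and at 5.77, 5.83 and 4.6 CPM with the cytokines (log2 fold change -2.99 ± 0.25, adjusted p = 2.8e-08). Pola1, the catalytic subunit of DNA polymerase α, fell by 3.08 ± 0.29. Fewer replicating cells and less RNA per cell cannot be told apart in a sum. Per cell, the 90th percentile of the summed S phase level was 3.27 per 10000 UMIs with the cytokines against 15.9 in control, and the medians were 1.74 and 2.83. The mitotic genes beside Mki67 and Top2a, whose level the rule caps, fell in 5 of 10, against 14.1% of all genes. Myc itself fell by 1.15 ± 0.18. Of its target list 21 of 25 tested fell and 1 rose, against 14.1% and 14.4% of all genes, with a median of -0.78. Among those that fell was the nucleolar gene Ncl, from 639, 961 and 859 CPM to 347, 416 and 475. The target that rose was Ldha, lactate dehydrogenase A.

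Growth and stress genes gave mixed counts. Of 28 mTORC1 target genes 10 rose and 1 fell, against 14.4% and 14.1% of all genes, with a median log2 fold change of 0.26. The risers were partly glycolytic (Pgk1 by 0.68 ± 0.10, Aldoa by 0.63 ± 0.08) and partly of amino acid synthesis (Psat1 by 0.88 ± 0.25, not called without replicate 1), and Ddit4, which inhibits mTORC1, fell by 0.84 ± 0.22. Without the replicate block none of the 28 was called. A list of 19 tested genes of the G1 phase holds drivers of entry into S phase beside inhibitors. Of the 19, 5 rose and 7 fell, against 14.4% and 14.1% of all genes. Those that fell were the drivers Ccnd2, Ccne1, Ccne2 (by 2.66 ± 0.48), Cdk2, Cdk4 (by 1.12 ± 0.15) and Cdk6, and the kinase inhibitor Cdkn2c. Those that rose were Mxd1 and Mxi1, antagonists of Myc, by 2.03 ± 0.23 and 1.38 ± 0.17, the kinase inhibitor Cdkn2b by 0.84 ± 0.18, the retinoblastoma gene Rb1 by 0.81 ± 0.15, and a driver, the cyclin Ccnd1, by 0.70 ± 0.12. Cdkn1a, the p21 inhibitor, did not pass the test (0.44 ± 0.18, adjusted p = 0.0768).

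The counts of further lists are to be read against the 14.4% of all genes that rose and the 14.1% that fell, 28.5% in either direction. Tight junction and adhesion genes rose in 7 of 18 tested and fell in none (Cldn3 by 0.49 ± 0.09, F11r by 0.63 ± 0.13), the STAT3 and IL-10 list rose in 4 and fell in 1 of 14 (Stat3 itself by 1.01 ± 0.18, Il10rb by 0.56 ± 0.16), and the stress list rose in 5 and fell in 1 of 18 (the chaperone Hspa5 rose by 0.55 ± 0.11, not called without replicate 1). Absorptive transcription factors rose in 4 of 20, Hnf4g by 0.70 ± 0.12 among them, and Cdx1 fell by 0.77 ± 0.13. Notch pathway genes fell in 4 of 9 (Hes1 by 0.88 ± 0.20, not called without replicate 1), p53 targets rose in 1 and fell in 2 of 15, and 1 of 3 regeneration genes fell. In either direction, 5 of 14 genes of the STAT3 and IL-10 list, 6 of 18 of the stress list, 5 of 20 absorptive factors and 3 of 15 p53 targets were called, and nothing is read from these counts. Of the secretory markers that could be tested, the goblet gene Spink4 fell by 0.96 ± 0.23, with 94.4 CPM in control and 49.7 with the cytokines on average, and the M cell gene did not pass.

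Early response genes, which tissue dissociation can induce, moved with the cytokine group. Their summed level was 2092, 861 and 1253 CPM in the control replicates and 312, 677 and 500 with the cytokines, with no overlap. Of 9 tested genes 8 fell, against 14.1% of all genes, with a median log2 fold change of -1.22. Fos, the most abundant of them in control replicates 1 and 3, went from 519, 199 and 348 CPM to 12.6, 121 and 86.2, and Egr1 fell by 1.69 ± 0.30. Control replicate 1 was the highest, and without replicate 1 the fall was called in 3 of 9. Their part in the other changes was not tested.

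**Figure D4:**
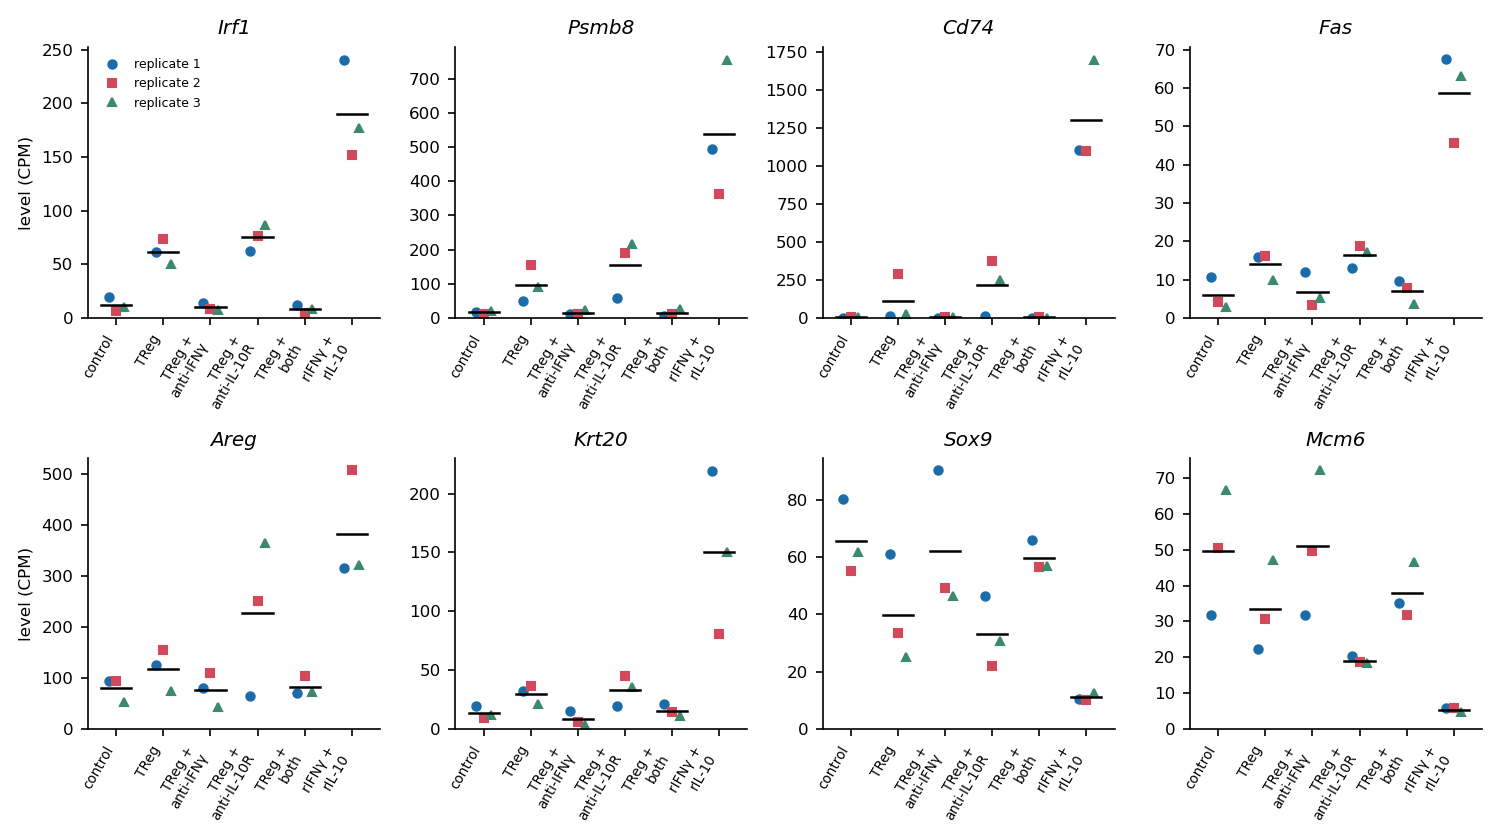
Level in CPM (y axis) of 8 genes in Fabp1-intermediate cells of the 6 groups (x axis). Points are replicates and bars their mean. Irf1 and Psmb8 are raised in the TReg and TReg + anti-IL-10R groups and highest with the cytokines (Irf1 152 to 241 CPM), while Sox9 and Mcm6 are lowest with the cytokines.

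The cytokine and control cells were also compared at both ends of the Fabp1 range. In the cells with Fabp1 at 5 to below 15 and in those at 15 to below 50, the stem cell sum was 473 ± 133 and 261 ± 78.6 CPM in control and 118 ± 56.8 and 61.0 ± 16.4 with the cytokines (SD, n = 3). S phase genes were at 797 ± 121 and 457 ± 207 in control against 272 ± 148 and 209 ± 9.37, although in the cells with more Fabp1 replicate 1 stood at 222 in control and at 200.5 with the cytokines. Areg was at 70.1 ± 9.15 and 85.0 ± 39.4 in control against 377 ± 127 and 370 ± 115. In the cells with less Fabp1 the enterocyte sum was 4393 ± 635 in control and 8164 ± 2512 with the cytokines, and in those with more it was 8490 ± 2512 and 11247 ± 3361. It was higher with the cytokines in 3 of 3 replicates of either set of cells. These sums are descriptions without a test, on 11 to 43 cells per replicate.

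Co-culture with TReg cells raised 8 genes in these cells and lowered none (0.0804% of 9945, with 5.99% of all genes free of overlap), and all comparisons with control share the 3 control samples. Irf1 was at 61.8, 73.3 and 49.8 CPM with TReg cells, above the control values of 19.7, 5.99 and 9.81 in every replicate, a log2 fold change of 2.47 ± 0.28 (adjusted p = 0.000117). Psmb8 was at 48.1, 154 and 90.3 CPM, also above all controls, with a log2 fold change of 2.69 ± 0.40 (adjusted p = 0.00265). The others were the immunoproteasome genes Psmb9 (1.90 ± 0.31) and Psmb10 (1.02 ± 0.18), the proteasome activators Psme1 (0.90 ± 0.13) and Psme2 (0.86 ± 0.14), galectin 9 (Lgals9, 0.61 ± 0.10) and the alcohol dehydrogenase Adh6a (2.84 ± 0.55, adjusted p = 0.0462). Thus 5 of 18 class I pathway genes and 1 of 21 interferon-inducible genes rose, with list medians of 0.74 and 0.89 against -0.01 for all genes. The calls needed replicate 3: without it none of the 8 passed (0 genes, against 4 without replicate 2 and 49 without replicate 1).

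MHC class II in the TReg co-culture depended on the replicate. Cd74 was at 13.7, 288 and 25.9 CPM with TReg cells, all above the highest control of 5.99, but replicate 2 stood far above the others and the test was not passed (log2 fold change 4.53 ± 0.92, adjusted p = 0.0685). The share of cells with a UMI of 1 of the 4 class II genes, at 10000 UMIs each, was 13.3%, 56.9% and 21.1%, against 6.67% to 8.70% in control. None of the 12 class II genes was called. Areg was at 125, 155 and 74.4 CPM, higher than the control of its replicate in 3 of 3 but overlapping the control range (log2 fold change 0.56 ± 0.35, adjusted p = 0.764). Sox9 was at 61.0, 33.5 and 25.2 CPM and lower than control in 3 of 3 replicates (log2 fold change -0.72 ± 0.18, adjusted p = 0.176), and Mcm6 was lower in 3 of 3 (-0.59 ± 0.18, adjusted p = 0.4). Neither passed the test, nor did any gene of the stem cell, S phase, enterocyte, Myc target, mTORC1 target or cell death lists.

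With anti-IL-10R, 70 genes were higher and 50 lower than in control (1.21% of 9945), and the replicates did not overlap in 10% of all genes. Cells re-chosen by the rule after thinning to 10000 UMIs, with their full counts summed, gave 22 higher and 1 lower. Fabp1 at 8 to 40 gave 17 and 6, and equal cells per group gave 34 and 16. Compared directly, TReg cells with and without anti-IL-10R differed in no gene by edgeR (0 of 9945, 426 at an unadjusted p below 0.05) or by DESeq2 (0). Irf1 reached 62.0, 76.6 and 86.6 CPM (log2 fold change 2.74 ± 0.28, adjusted p = 1.99e-05) and Psmb8 58.5, 191 and 216 CPM (3.28 ± 0.39, adjusted p = 7.57e-05). Of the class I list 11 of 18 rose, of the class II list 6 of 12 and of the interferon-inducible list 4 of 21, with medians of 0.89, 3.81 (2.8 with the genes at 0 in control at their bound) and 1.27. Cd74 was at 11.3, 377 and 252 CPM, so that replicate 1 was near the controls and the other two far above them (log2 fold change 5.58 ± 0.88, adjusted p = 0.00208). Ciita was detected in all 3 replicates, with 38 UMIs against 0 in control, at least 13.6-fold higher.

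Areg, too, split by replicate with anti-IL-10R: 65.0, 251 and 365 CPM, the first of them below the control of its replicate. Its log2 fold change of 1.44 ± 0.36 passed narrowly (adjusted p = 0.0469). The call was lost without replicate 2 or 3, with DESeq2 and with cells re-chosen after thinning. Lgals3 did not pass (0.93 ± 0.41, adjusted p = 0.303). Of crypt and cycle genes, Sox9 fell by 1.05 ± 0.19 to 46.5, 22.0 and 30.8 CPM, Mcm6 by 1.30 ± 0.21 to 20.3, 18.6 and 18.3 CPM and Cdk1, the mitotic kinase, by 1.70 ± 0.26, with no overlap with control, though none of the 3 was called without replicate 3. In the lists, 4 of 15 S phase genes, 3 of 10 mitotic genes, 1 of 8 stem cell genes and 4 of 25 Myc targets fell, while no enterocyte or mTORC1 target gene was called. With cells re-chosen after thinning to 10000 UMIs, 1 gene of all those tested was called lower, so nearly all falls named in this paragraph lost their call. The counts tested there were not thinned, so this is no test of depth. Slfn9 fell by 1.75 ± 0.24 and Gnl3, a nucleolar protein of dividing cells, by 0.78 ± 0.14. The count rested on replicates 2 and 3, since it was 19 without replicate 2, 2 without replicate 3 and 428 without replicate 1. Irf1 was called in all of these sets, Psmb8 and Cd74 not without replicate 3.

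With IFNγ blocked, no gene passed the test against control, whether IFNγ alone (0 of 9945, 338 at an unadjusted p below 0.05, 0 by DESeq2) or IFNγ and the IL-10 receptor were blocked (0, 356 and 0). The replicates did not overlap control in 4.81% and 4.95% of the genes. With anti-IFNγ Irf1 was at 13.9, 8.25 and 7.37 CPM and Psmb8 at 11.9, 10.3 and 22.1 CPM, both within or next to the control range. With both antibodies Irf1 was at 12.0, 4.53 and 8.38 CPM and Psmb8 at 6.21, 11.3 and 26.1 CPM, again overlapping control. Cd74 did not exceed 5.78 and 5.09 CPM in these groups. Areg was at 80.0, 109 and 42.7 CPM with anti-IFNγ and at 69.6, 104 and 71.7 CPM with both antibodies, overlapping control in each.

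The antibodies were also compared with the TReg co-culture itself. Against TReg cells with anti-IFNγ, 23 genes were higher with TReg cells alone and 15 lower (0.382% of 9945, with 7.62% of all genes free of overlap). The higher ones held 10 of 18 class I genes, Psmb8 (2.76 ± 0.39) among them, as well as Irf1 (2.62 ± 0.28), Cd74 (4.55 ± 0.92, adjusted p = 0.0245), the inflammatory caspase Casp1 (0.71 ± 0.16) and Lypd8, an epithelial protein that binds flagella (0.67 ± 0.12). The lower ones included the cyclins Ccne1 (-1.68 ± 0.29) and Ccne2 (-1.61 ± 0.33), the origin factor Orc6 (-0.97 ± 0.15), and the chromatin genes Uhrf1 (-1.13 ± 0.22) and Hells (-1.01 ± 0.21). Leaving out replicate 2 or replicate 3 left 3 called genes each, of which 0 and 1 were lower. With cells re-chosen after thinning, with equal cells per group and with Fabp1 at 8 to 40, 2 genes each were called lower.

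Against TReg cells with both antibodies, 10 genes were higher with TReg cells alone and none lower (0.101%, with 6.78% of all genes free of overlap). Irf1 (2.90 ± 0.31) and Psmb8 (2.91 ± 0.42) led them, and 5 of 18 class I genes, Lgals9 and Ifitm3, a membrane protein that blocks viral entry, were among them. Irf1 was called in each of the 3 sets that left out a replicate. Against TReg cells with anti-IL-10R, where no gene passed and 5.3% of the genes were free of overlap, Areg was lower with TReg cells alone by 0.88 ± 0.34 on the log2 scale (adjusted p = 0.978). Of the 4 groups with TReg cells, therefore, Irf1 was high in the pair in which IFNγ was not blocked.

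**Figure D5:**
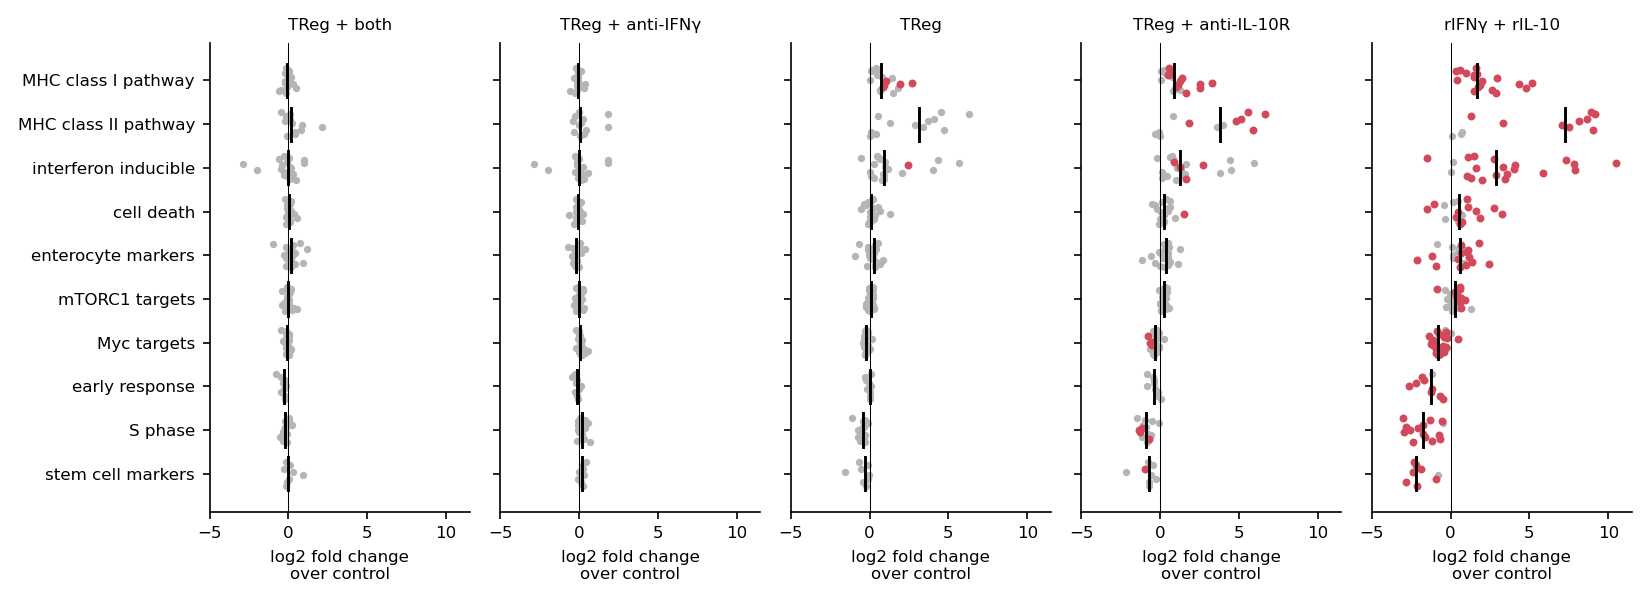
Log2 fold change over control (x axis) of the tested genes of 10 lists (rows) in Fabp1-intermediate cells, in 5 panels by group. Each point is a gene, red where the adjusted p is below 0.05 and grey otherwise, and black bars are list medians. Fitted values of the 2 class II genes at 0 in control are no bounds. In the cytokine panel the class I list has its median at 1.69 and the stem cell list at -2.17, while both panels with IFNγ blocked hold no red point.

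Whether these cells answered differently from their neighbours was tested within cultures, as the difference of the log2 fold change between cell classes. For the cytokines, 18 of 11022 genes (0.163%) answered differently from the cells of the same Fabp1 range with more Mki67 and Top2a. In the cytokine cultures that class held 10, 24 and 6 cells, and the sum of 6 cells was left out. Crot, a peroxisomal carnitine transferase, was higher by 1.48 ± 0.31 in this difference (adjusted p = 0.0377): it went from 54.1 to 73.0 CPM on average in the Fabp1-intermediate cells and from 36.2 to 19.5 in the others. Slc12a2 fell more in them, by 1.88 ± 0.37 (adjusted p = 0.0281), with 124 and 17.6 CPM against 180 and 100.6, and Gnl3 by 1.17 ± 0.23. Leaving out replicate 1 or 2 left a single cytokine sum of that class, of 24 or 10 cells, which is then assumed to vary like the sums of the other groups. In these fits Slc12a2 and Gnl3 did not pass without replicate 1, nor Crot and Gnl3 without replicate 2.

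Against the cells with Fabp1 at 50 or more, 24 genes (0.218%) answered the cytokines differently, 20 of them with a higher difference in the Fabp1-intermediate cells. Gsta1, a glutathione transferase, went from 31.2 to 156 CPM in these cells and from 278 to 238 in the high Fabp1 cells, a difference of 2.28 ± 0.43 (adjusted p = 0.0241). Sprr2a3, a cornified envelope protein gene, went from 179 to 504 and from 372 to 361 (1.87 ± 0.37, adjusted p = 0.0241). Mcm6 fell from 48.7 to 5.37 in these cells and was low throughout in the others, with 7.90 and 6.98 (difference -2.90 ± 0.63, adjusted p = 0.0394). Without replicate 2, 1 gene was called, Sprr2a3, which did not pass without replicate 1 (adjusted p = 0.114), and Gsta1 and Mcm6 did not pass without replicate 3 (adjusted p = 0.0545 and 0.0632). For TReg co-culture, 1 gene differed from the cycling cells (0.00907%), and none from the high Fabp1 cells (0 of 11022 by edgeR, 388 at an unadjusted p below 0.05; DESeq2 was not run here). An effect called in these cells and not in a neighbour is thus not shown to differ between them except for these genes.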

How the data were processed

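Droplet libraries of single cells with hashtag antibodies were deposited by the authors as UMI counts per gene and barcode, made per the labels with Cell Ranger 7.0.0 (mm10) and handled with Seurat 4.0.5. The deposited counts are whole numbers, not normalized. Of 6 libraries, B1 to B5 were used, with 35985 barcodes and 128917456 to 223155304 gene UMIs each. Hashtags were assigned per library with HTODemux (Seurat 5.3.0, centred log ratios, quantile 0.99), which gave 24320 singlets, 3387 doublets and 8278 negatives. Hashtags cannot show doublets within a group. The paper also removed doublets called from expression by scDblFinder, a step not run here, so such doublets may remain among the cells. Of the singlets, 11911 remained within limits on depth (10000 to 90000 UMIs), on detected genes (3000 to 10000) and on the mitochondrial share (8.5% or less), and 11207 had been below the lower depth limit.

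Member counts were summed per group and replicate (940045 to 3079932 UMIs per sum) and tested with edgeR 4.0.16 (R 4.3.3, filterByExpr, TMM, quasi-likelihood, replicate as a block), adjusted over all 9945 genes. The replicates pair the sums because all groups of a replicate share their libraries, and deviations from the group means had a mean correlation of 0.505 between sums of the same replicate (lowest 0.0682 of 45 pairs) and -0.242 between others. Cell classes were compared by an interaction term with the culture as a block, on sums of at least 10 cells. Shares were compared by exact permutation tests, and counting intervals at 95% cover counting error only. The fits were tested on simulated counts. Named genes were, per comparison, up to 10 raised and 10 lowered genes with the smallest adjusted p below 0.05, the same direction in 3 of 3 replicates and at least 10 CPM in the higher group, then from each list up to 4 called genes with the largest change and up to 2 abundant ones not called, the markers of the cells, and for interactions the 5 smallest p in each direction. Some list genes outside this rule were added after their values were seen. The members, gene lists and tests were chosen with earlier results of these data known. Alternatives were DESeq2 1.42.0, no replicate block, the library as the block, no filter, other limits on Fabp1 or depth, thinned or equal numbers of cells, and leaving out each replicate. Results for some genes are not reported here.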

Additional observations from a re-analysis of the deposited data

Results flagged for a closer look

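These genes answered a treatment differently in Fabp1-intermediate cells and in a neighbouring class of cells, by the interaction test, and stand here as values on the log2 scale with no weighing. For the cytokines against the cells of the same Fabp1 range with more Mki67 and Top2a, the difference was positive for Crot, a peroxisomal carnitine transferase (1.48), and Xpnpep3, an aminopeptidase (2.28). It was negative for Xrcc5, a DNA repair gene (-3.33), Rbbp4, a histone chaperone (-0.94), Slc12a2 (-1.88), Gnl3 (-1.17) and Tipin, a replication fork protein (-2.11). Xrcc5 stood at 9.90 CPM in control and 3.61 with the cytokines in the Fabp1-intermediate cells, and at 13.6 and 48.8 in the others, where the 2 cytokine sums were 19.0 and 78.5. Xpnpep3 lost its call on leaving out any replicate (adjusted p = 0.324, 0.464 and 0.0597). Rbbp4, Slc12a2 and Gnl3 lost theirs without replicate 1 as well, and without replicate 2 Slc12a2 was the one of the 7 that passed (adjusted p = 0.0266). Both of these sets hold a single cytokine sum of the other class, assumed to vary like the sums of the other groups.

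Against the cells with Fabp1 at 50 or more, the cytokine difference was positive for Ftl1, ferritin light chain (0.52), Gsta1 (2.28), Sprr2a3 (1.87), Gde1 (2.02) and Mien1 (0.62). It was negative for Ube2c, a mitotic ubiquitin-conjugating enzyme (-1.55), Hat1, a histone acetyltransferase (-1.55), Mcm6 (-2.90) and Hook1 (-0.85). Without replicate 2, Sprr2a3 was the one among these 9 with an adjusted p below 0.05 (0.000349). Without replicate 1, Sprr2a3 (0.114) and Hook1 (0.0898) did not pass, and without replicate 3 Sprr2a3 and Gde1 were those that did (0.0424 each), with the others from 0.0545 to 0.174.

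For TReg co-culture against the cells of the same Fabp1 range with more Mki67 and Top2a, Tas1r1, a taste receptor subunit, gave a fitted difference of 13.32, which is no bound, since Tas1r1 was at 0 in all control sums and in 2 of 3 TReg sums of the Fabp1-intermediate cells and at 32.3 CPM in the other. It was not called without replicate 2.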

How the results depend on the processing

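Counts of changed genes moved as follows. Without the replicate block (no pairing of the cultures) the count fell from 8 to 1 for TReg cells against control, from 2836 to 1042 for the cytokines, from 120 to 5 for anti-IL-10R, from 10 to 1 against both antibodies, from 38 to 2 against anti-IFNγ, and in the interactions to 1 (cytokines, cycling cells), 0 (cytokines, high Fabp1 cells) and 0 (TReg cells, cycling cells), while the 3 comparisons with no called gene stayed at 0. With the library as the block, which counts the 2 libraries of replicate 1 and the 2 of replicate 2 as separate samples, so that 5 sums stand for 3 replicates, the counts were 39 (TReg cells), 276 (anti-IL-10R), 30 (against both antibodies) and 124 (against anti-IFNγ). Without a filter on low counts they were 145, 23 for both antibodies against control, 13 for anti-IFNγ against control, 399 for anti-IL-10R, 119 and 282 against both antibodies and anti-IFNγ, 38 against anti-IL-10R, and 154, 264, 10 and 13 in the interactions. Anti-IL-10R gave 23 genes with cells re-chosen after thinning, 23 with Fabp1 at 8 to 40 and 50 with equal cells per group. TReg cells against anti-IFNγ gave 12, 8 and 14 in the same order, and against both antibodies 5 with Fabp1 at 8 to 40 and 17 with DESeq2.

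Leaving out 1 replicate gave 0 to 49 genes for TReg cells, 1719 to 2082 for the cytokines, 2 to 428 for anti-IL-10R, 3 to 21 against both antibodies, 3 to 86 against anti-IFNγ, 0 to 2 against anti-IL-10R, and 9 to 37, 1 to 50 and 0 to 2 in the first 3 interactions. The cytokine effect on the share of Fabp1-intermediate cells ran from -2.51 to 1.45 percentage points. For the share below the Mki67 and Top2a limit the effect ran from -2.07 to 3.75 (TReg cells), -5.78 to 2.91 (anti-IFNγ), -8.48 to 3.99 (anti-IL-10R) and -8.41 to 1.55 (both antibodies), and it was 0.0459 for anti-IFNγ with thinned cells and 6.54, 1.42 and 0.806 for anti-IL-10R with thinned cells, Fabp1 at 8 to 40 and at most 60000 UMIs.

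Of 2666 values of named genes under the alternatives, 2119 kept their direction and side of the threshold, 503 lost the call, 36 gained it and 8 changed sign, all 8 of genes not called. These were Gdf15 with the cytokines (0.0103 with cells re-chosen after thinning), Areg with both antibodies (-0.43 with Fabp1 at 8 to 40, -0.005 with equal cells, and -0.1289 to 0.2715 on leaving out 1 replicate, negative without replicate 2 or 3) and Areg with anti-IFNγ (0.0094 with at most 60000 UMIs, 0.026 with equal cells, and -0.2006 to 0.064 on leaving out 1 replicate, positive without replicate 1). The causes were not tested.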
